A study of Mus musculus with 10 samples.

Results

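Natriuretic peptides are hormones that heart muscle cells release when the heart wall is stretched, and they lower blood pressure and blood volume. The set described here comprises the 3 peptide genes Nppa, Nppb and Nppc, the 3 receptor genes Npr1, Npr2 and Npr3, and Corin, which encodes the protease that activates the Nppa product. The members were chosen by gene symbol, and each of the 7 was measured by 1 probe, giving 7 of the 16113 genes tested and 7 of the 26423 probes on the array. The array data cover left ventricles of adult male C57BL/6J mice, operated at the age of 8 weeks. Transverse aortic banding (TAB), a constriction of the aorta that imposes pressure overload on the left ventricle, was compared with a sham operation. After surgery each operation had 1 sample for each early day (3, 5 and 7) and 1 for each late day (14 and 28), 10 samples in all, to follow the heart from developing to compensatory hypertrophy. No genetic modification was named for either group. The labels do not state how many mice each sample holds, and one label of the TAB sample of day 14 reads day 15.

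Nppa encodes atrial natriuretic peptide (ANP) and Nppb encodes brain natriuretic peptide (BNP). Both are made in the atria of a healthy adult heart, and the ventricle, in which they are abundant before birth, makes them again under load. Corin cuts the ANP precursor to the active hormone at the myocyte surface. ANP and BNP act on the receptor encoded by Npr1, and C-type natriuretic peptide (CNP, encoded by Nppc) acts on that encoded by Npr2. Both receptors are guanylate cyclases that make cyclic GMP, whereas the product of Npr3 lacks the cyclase and clears the peptides from the circulation.

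Nppb and Nppa lie side by side on chromosome 4 (GRCm38.p6), at chr4:147985786-147987205 and chr4:148000722-148002074, separated by 13516 bases and read in the same direction. Both genes were higher on average after banding, so the 150 bases before the start used for each are printed, 5′ to 3′. Those of Nppc, the peptide gene for which no change was detected, are printed beside them, though its probe was dim. The sequences and positions are those of RefSeq on GRCm38.p6, in which all 7 members have an entry, and capitals mark the motif matches described next. The Nppa stretch is chr4:148000572-148000721 on the plus strand, the Nppb stretch is chr4:147985750-147985899 on the plus strand, and the Nppc stretch is chr1:86670574-86670723 on the minus strand. The starts used in that table for Nppb, Npr1, Npr2 and Npr3 lie inside the annotated genes. Most of the Nppb stretch, with all of its motif matches, therefore lies within its gene. The windows of Npr2 and Npr3 lie wholly within theirs.
Nppa: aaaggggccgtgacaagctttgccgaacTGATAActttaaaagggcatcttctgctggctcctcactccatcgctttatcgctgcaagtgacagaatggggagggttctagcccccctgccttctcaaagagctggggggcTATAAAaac
Nppb: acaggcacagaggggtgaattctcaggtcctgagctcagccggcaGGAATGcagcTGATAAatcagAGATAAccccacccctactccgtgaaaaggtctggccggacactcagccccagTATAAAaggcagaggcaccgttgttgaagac
Nppc: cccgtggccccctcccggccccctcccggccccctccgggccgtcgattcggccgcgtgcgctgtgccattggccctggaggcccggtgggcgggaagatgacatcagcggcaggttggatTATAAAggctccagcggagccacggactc

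The 250 bases before the start used for every gene were searched for 5 motifs of cardiac transcription. Both strands were searched, except for the TATA motif, which was read on the gene's strand only. The GATA motif (TGATAA or AGATAA) was found 122 to 117 bases before the Nppa start, and in Nppb at 95 to 90 and again at 84 to 79 bases before the start. It was in 2 of the 7 members and in 16.6% of the 32851 promoters of the table. The TATA motif (TATAAA) was in all 3 peptide genes, but not at a like position. It lay 9 to 4 bases before the start used for Nppa, 31 to 26 for Nppb and 29 to 24 for Nppc. It was in no window of a receptor gene or Corin, against 7.59% of all promoters. Since the windows of Npr2 and Npr3 and the matches of Nppb lie within the genes, peptide and receptor genes cannot be compared by these matches. The MCAT motif (CATTCC), bound by TEAD factors, was read on the minus strand of Nppb at 105 to 100 bases before the start, where the plus strand reads GGAATG, and occurs in 12.6% of promoters. The NKE motif (TNAAGTG), bound by Nkx2-5, was in Nppa alone among the members, at 241 to 235 bases before the start and thus outside the printed stretch, against 10.1% of promoters. The CArG box, bound by serum response factor, was in none of the 7 windows and in 1.47% of promoters. GATA, MCAT and TATA occurred together in Nppb and in 0.259% of promoters. That combination is the set of matches of Nppb itself, so its share does not show that Nppb is unusual. No match overlapped another within these windows. These matches describe letters in a window and say nothing about binding in these hearts.

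Values below are array intensities of the probe after median scaling and quantile normalization over the 10 arrays, called normalized intensity. Because probes differ in brightness, a value was compared only with other values of the same gene. Median raw intensity was 34 to 57 per array, and the highest raw intensity of any member was 34684, below the 65000 taken as saturated. The probe's spot was found by the scanning software on all 10 arrays for 6 members and on 9 for Npr1. The deposited detection p-value was below 0.05 on all 10 arrays for Nppa, Nppb and Corin, on 6 for Npr2, on 2 for Npr3, on 1 for Nppc and on 0 for Npr1, so the last 3 were dim. The 10 arrays limit the precision of each value. The 4 ventricular myocyte markers (Myl2, Myl3, Irx4 and Hey2) were found on all arrays with 0 called, but Myl2 reached 65495 to 65500 in TAB and was saturated there, so it could show no change. Of the 5 atrial myocyte markers, 4 were also found on all arrays. Of the other marker lists, the macrophage list was higher in TAB in 5 of 5 genes (median log2 effect 1.26), the fibroblast list in 1 of 3 tested (Lum) and the smooth muscle list in 1 of 3 tested (Tagln, found on only 4 of 10 arrays). The 5 endothelial and the 5 general cardiomyocyte markers had 0 called. The part of these cells in the results was not tested, and in whole tissue, fewer cells of a type and less RNA per cell cannot be told apart.

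One sample, the sham heart of day 14, stood apart in members that the results turn on. It was the highest of the 5 sham samples for Nppa and Nppb and the lowest for Npr2, while day 14 was the highest sham sample for 21.7% of all genes. Of the 5 atrial myocyte markers, 4 were also at their highest sham level in it. Sarcolipin (Sln), a calcium pump inhibitor of atrial muscle, was 1761 there and 657 to 1045 in the other sham samples. Myl7, an atrial myosin light chain, was 3862 there and 1863 to 2524 in the others, and Myl4, another atrial light chain, was 4350 and 1751 to 3717. In the TAB heart of day 14 the same 3 genes had their lowest TAB values, namely 260 for Sln, 818 for Myl7 and 1477 for Myl4. The other atrial markers did not. Stard10 was 319 there and lowest on day 5 (272), and Bmp10 was 8.79 and lowest on day 3 (5.18). The summed intensity of the 5 atrial markers was 5031 to 10758 in sham and 2883 to 5173 in TAB, with day 14 at the top of the sham range and at the bottom of the TAB range. Bmp10, found on only 3 of 10 arrays, was not found in either sample of day 14, and Stard10 was the 1 atrial marker called (log2 effect −0.99, limma adjusted p = 0.0154). The skeletal actin gene Acta1, a marker of ventricular load, was 5633 in the day 14 sham heart and 3436 to 5044 in the others, whereas Ankrd1, another such gene, was 12188 there and within the 7348 to 12882 of the others. The part of atrial tissue in the members' values was not tested, and the average effect of each member is therefore given with and without day 14.

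**Figure D1:**
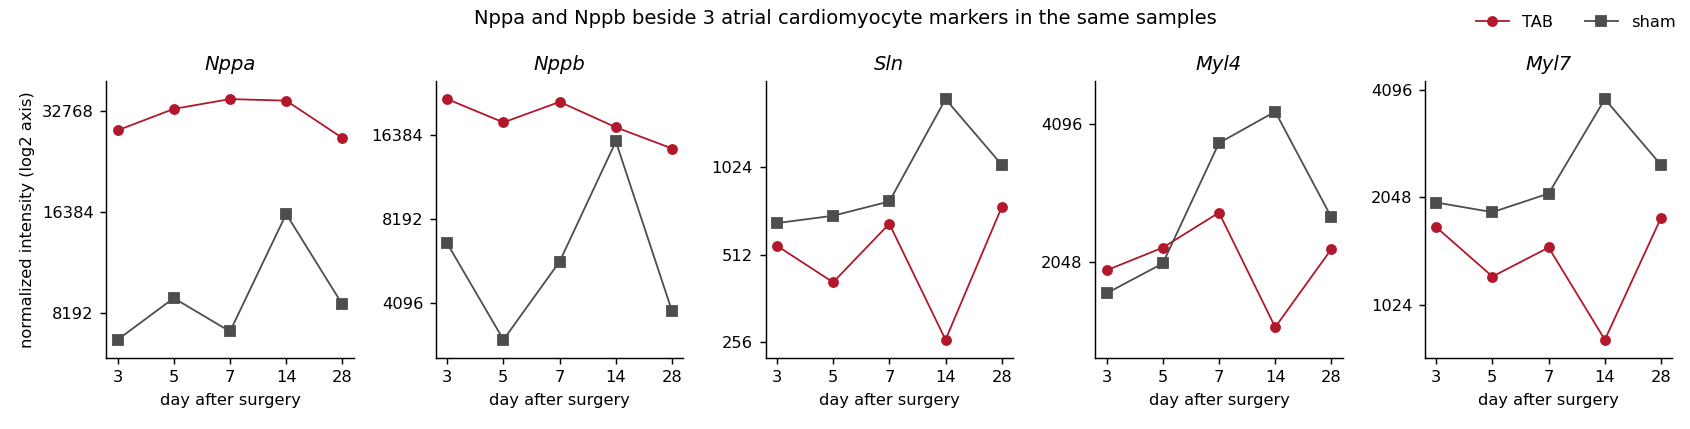
Normalized intensity (log2 axis) of Nppa, Nppb and 3 atrial myocyte markers against the day after surgery, with 1 TAB (red circles) and 1 sham (grey squares) sample at each day. On day 14 the sham sample is at its highest for all 5 genes, and the TAB sample is at its lowest for the 3 atrial markers but not for Nppa or Nppb.

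Nppa was up-regulated in the banded hearts on average, and its value was higher in TAB than in sham on each of the 5 days. Its normalized intensity in TAB was 28630, 33173, 35487, 35105 and 27167 on days 3, 5, 7, 14 and 28. In sham it was 6794, 9044, 7191, 16119 and 8655 on the same days. All 5 TAB values lay above all 5 sham values, which held for 9.99% of all genes. Averaged over the days, with day as a block, Nppa was 1.81 ± 0.19 (SE) higher on the log2 scale, a 3.49-fold difference with a 95% confidence interval of 2.55 to 4.79 (limma adjusted p = 0.0120, n = 5 per group). In an exact permutation test over the 10 samples the two-sided p was 0.00794, the smallest that 5 against 5 can give. Among all 16113 genes, 240 had a higher average effect. In order of level the samples ran sham day 3, 7, 28, 5 and 14, then TAB day 28, 3, 5, 14 and 7. With 1 sample at each day and operation, neighbours in that order cannot be told apart.

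Within the sham group the day 14 heart had 2.05 times the geometric mean of the other 4 for Nppa. The same-day log2 ratio was therefore lowest on day 14, at 1.12, against 2.08, 1.87, 2.30 and 1.65 on days 3, 5, 7 and 28. Set against the other 4 sham hearts, the TAB heart of day 14 was higher by 2.16 on the log2 scale, or 4.46-fold. Without day 14 the average effect was 1.98 (limma adjusted p = 0.0292). Leaving out day 3, 5 or 7 raised the adjusted p of Nppa to 0.0558, 0.0527 and 0.0579, with effects of 1.74, 1.79 and 1.68, while leaving out day 28 gave 1.84 (limma adjusted p = 0.0178).

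Nppb was also up-regulated, with more spread among the sham hearts. In TAB its normalized intensity was 22130, 18240, 21626, 17516 and 14689 on days 3, 5, 7, 14 and 28. In sham it was 6690, 3010, 5754, 15573 and 3811. A TAB value exceeded a sham value in 24 of 25 pairs, and the groups overlapped only where the TAB heart of day 28 fell below the sham heart of day 14. The average effect was 1.67 ± 0.34 (SE) on the log2 scale, or 3.18-fold with a 95% interval of 1.80 to 5.62 (limma adjusted p = 0.0292). The exact permutation p was 0.0159, two-sided. In order of level the sham samples of days 5, 28, 7 and 3 came first, then TAB day 28, sham day 14, and TAB days 14, 5, 7 and 3.

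On day 14 the TAB and sham values of Nppb were almost alike, with a log2 ratio of 0.17 against 1.73, 2.60, 1.91 and 1.95 on the other days. The sham heart of that day had 3.40 times the geometric mean of the other 4, and against those 4 the TAB heart was 3.82-fold higher. Without day 14 the average effect was 2.05 (limma adjusted p = 0.0327). Leaving out day 3, 5, 7 or 28 gave effects of 1.66, 1.44, 1.61 and 1.60 and limma adjusted p-values of 0.0901, 0.0858, 0.0973 and 0.0540. Setting probes below 1 to 1, in place of removing them, gave a limma adjusted p of 0.0585.

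**Figure D2:**
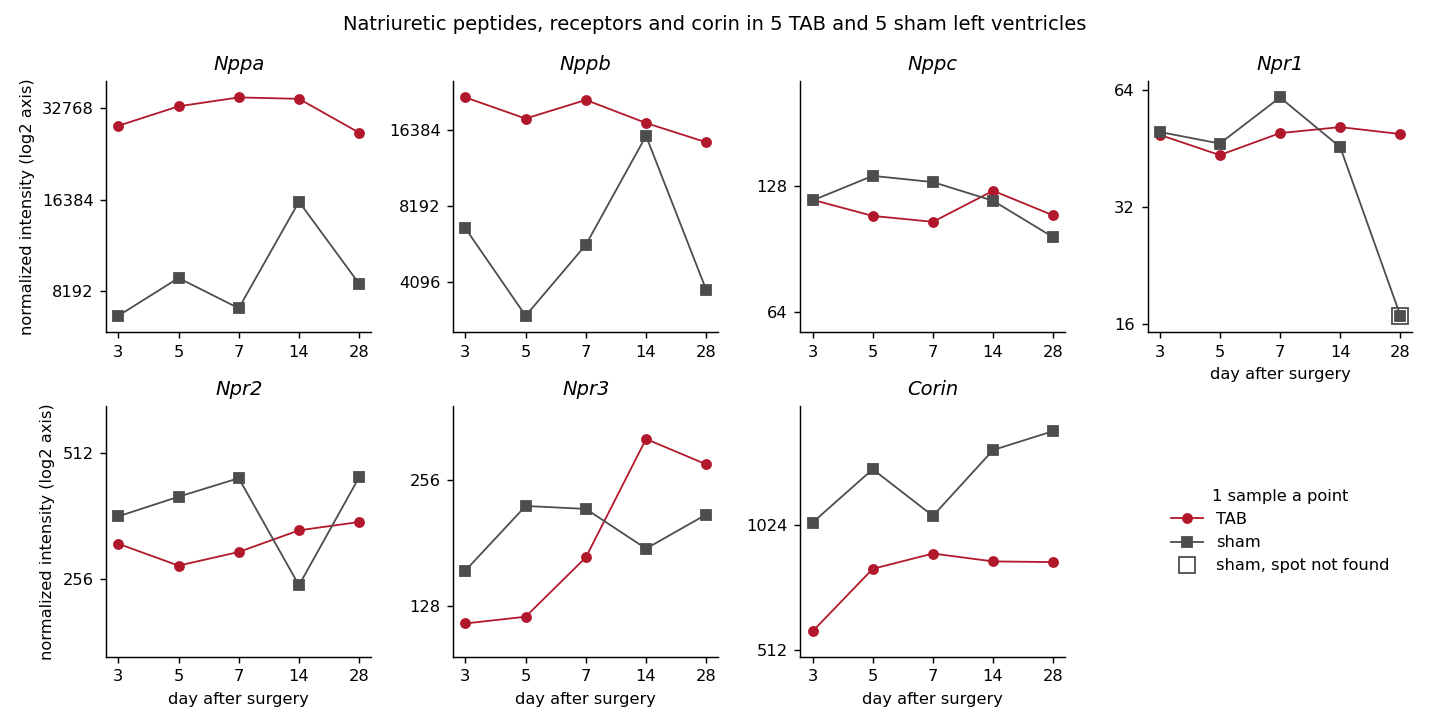
Normalized intensity of each member (log2 axis) against the day after surgery, with 1 sample a point, TAB as red circles and sham as grey squares; the open square marks the sham day 28 spot of Npr1, which the software did not find. All TAB points lie above all sham points for Nppa and below them for Corin, and the TAB line of Npr3 climbs from 116 on day 3 to 321 on day 14.

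Corin, the protease that activates ANP, was down-regulated while the ANP gene rose. Its normalized intensity in TAB was 568, 803, 874, 836 and 833 on days 3, 5, 7, 14 and 28. In sham it was 1036, 1392, 1075, 1547 and 1718. Every TAB value lay below every sham value, as for 7.76% of all genes. The average effect was −0.78 ± 0.14 (SE) on the log2 scale with a 95% interval of −1.11 to −0.45, so that sham was 1.71-fold above TAB (limma adjusted p = 0.0233; exact permutation p = 0.00794, two-sided). All 5 atrial myocyte markers also had lower averages in TAB, with a median log2 effect of −0.90 and 1 of 5 called, and their part in the Corin difference was not tested. The highest Corin values in sham were those of days 14 and 28, and the lowest TAB value was that of day 3. The sham value of day 14 was within the range of the other sham hearts, 1036 to 1718. Leaving out day 28 kept the call (limma adjusted p = 0.0393), whereas leaving out day 3, 5, 7 or 14 gave effects of −0.76, −0.77, −0.90 and −0.75 and limma adjusted p-values of 0.0788, 0.0759, 0.0624 and 0.0576. With probes below 1 set to 1 in place of removal, the limma adjusted p was 0.0503.

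Thus 3 of the 7 members (42.9%) were called for an average TAB effect, against 17.1% of all genes (2749 of 16113), namely 9.19% higher and 7.87% lower in TAB. Among genes with a probe found on every array, a setting chosen after seeing the data, a larger share was called, 3974 of 11059. Npr1 dropped out there, and the same 3 members were called. In the main setting the median effect over all genes was −0.034 on the log2 scale. Without a day, 8 samples entered the limma test, and 0 members were called without day 3, 5 or 7, against 2 without day 14 (Nppa and Nppb) and 2 without day 28 (Nppa and Corin). The number of all genes called then ranged from 22 to 2753.

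**Figure D3:**
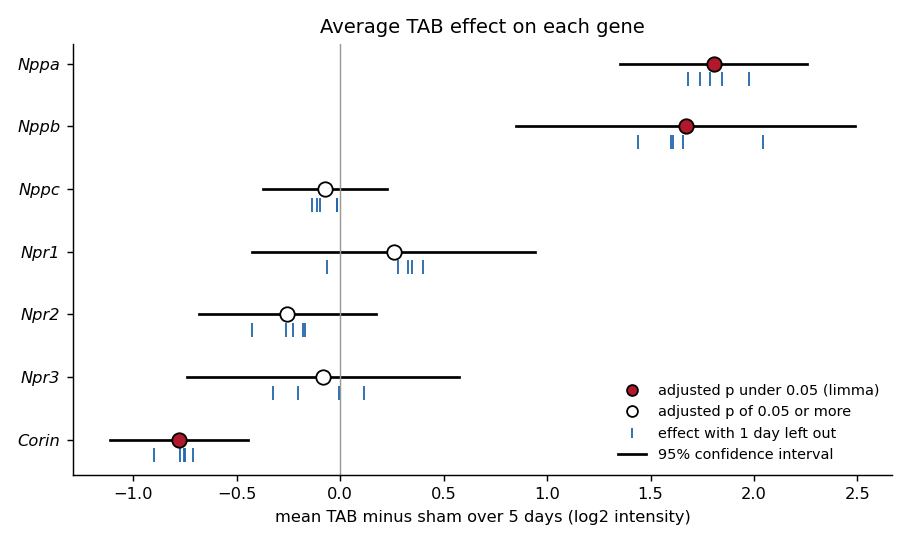
Mean TAB minus sham difference of each member over the 5 days on the log2 scale, with its 95% confidence interval; filled circles have a limma adjusted p under 0.05, and blue ticks are the effects with 1 day left out. Nppa (1.81) and Nppb (1.67) lie to the right of 0 and Corin (−0.78) to the left with every day left out, while the ticks of Npr1 and Npr3 fall on both sides of 0.

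No average effect was detected for Nppc, the CNP gene of endothelium. Its normalized intensity was 119, 109, 105, 125 and 109 in TAB and 119, 136, 131, 118 and 96.7 in sham on days 3 to 28. The groups overlapped over most of their range. The average effect was −0.075 on the log2 scale, with a 95% interval of −0.38 to 0.22 for the probe signal (limma adjusted p = 0.702), and it was −0.11 without day 14. The detection p-value of this probe was below 0.05 on only 1 array, so the interval sets no limit on a change of the transcript.

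Among the cyclase receptors, Npr1, the receptor of ANP and BNP, was close to background on every array. In TAB its normalized intensity was 49.0, 43.5, 49.5, 51.3 and 49.2, and in sham it was 49.8, 46.5, 61.1, 45.6 and 16.8. The sham spot of day 28 was not found by the software and stood far below the other 9 values. The average effect was 0.26 on the log2 scale (95% interval −0.43 to 0.94, limma adjusted p = 0.554), while it was −0.064 without day 28 and 0.28 without day 14. The log2 ratio of day 28 was 1.55, and it was 1.32 with median scaling only and 0.57 with 50 added to the intensity, with neither sample of that day detected at a p-value below 0.05.

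Npr2, the CNP receptor, had lower TAB than sham values on 4 of 5 days. In TAB it was 311, 276, 297, 335 and 351, and in sham 362, 403, 447, 247 and 449. The TAB values fell below all sham values except that of day 14, where the order turned, the other 4 sham hearts being 1.67-fold above it. The average effect was −0.25 on the log2 scale (95% interval −0.68 to 0.17, limma adjusted p = 0.345). With the sham heart of day 14 left out and no day block, the effect was −0.40 (limma adjusted p = 0.0425), and with day 14 left out and the block kept it was −0.43 (limma adjusted p = 0.0930).

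Npr3, the clearance receptor, was the member whose TAB values moved most between days. In TAB its normalized intensity was 116, 121, 167, 321 and 280 on days 3, 5, 7, 14 and 28. In sham it stayed between 156 and 222, at 156, 222, 219, 176 and 212. The TAB hearts of days 3 and 5 lay below all 5 sham hearts, and those of days 14 and 28 lay above all 5. Averaged over all days the effect was −0.083 (95% interval −0.74 to 0.57, limma adjusted p = 0.856), and it was 0.0010 without day 3, 0.12 without day 5, −0.0078 without day 7, −0.32 without day 14 and −0.20 without day 28. The detection p-value of Npr3 was not below 0.05 on any TAB array. The 4 members that were not called on average, Nppc and the 3 receptors, had limma adjusted p-values from 0.345 to 0.856.

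Whether the TAB effect differed between the early days (3, 5 and 7) and the late days (14 and 28) was tested as a contrast in limma. No gene passed after adjustment, 0 of 16113 (0%), with 1766 at an unadjusted p under 0.05 and a lowest adjusted p of 0.191. With an intensity trend and robust variance in limma, 34 genes passed. Npr3 had the largest difference among the members, with a mean log2 ratio of −0.56 on the early and 0.64 on the late days. The late minus early difference was 1.20 ± 0.28 (SE), with a 95% interval of 0.49 to 1.91 and an unadjusted limma p of 0.00717, but the adjusted p was 0.394. Without day 14 it was 0.96 (limma adjusted p = 0.456). With day 14 or day 28 left out, the late stage is 1 day, and a lone late sample is assumed to vary like the other samples. For Nppa the difference was −0.70 (limma adjusted p = 0.451) and −0.43 without day 14. For Nppb it was −1.02 (limma adjusted p = 0.544) with −0.13 without day 14 and −1.91 without day 28. Corin differed by −0.31, Npr2 by 0.49 and Nppc by 0.34, with limma adjusted p-values of 0.649, 0.565 and 0.560. The Npr2 difference was 0.095 without day 14 and 0.89 without day 28, and that of Corin was −0.14 without day 7. Npr1 differed by 1.00 (limma adjusted p = 0.482), by 0.31 without day 28, and by 1.72 when the sham heart of day 14 was left out without the block (limma adjusted p = 0.0311), where the only late sham sample is the spot of day 28 that was not found, so this p-value tests no spread of its own.

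The day-wise rule for differential expression (DE) asks whether the log2 ratio of a day exceeds 2 SDs of that day's ratios over all genes, and it uses no replicate. The limits were 1.78, 1.93, 1.75, 1.48 and 1.38 on the 5 days in turn, and the rule called 5.21%, 5.52%, 5.66%, 5.67% and 5.88% of all genes. Of the 35 member values, 7 were called. These were Nppa on days 3, 7 and 28, Nppb on days 5, 7 and 28, and Npr1 on day 28. The Npr1 value is a ratio to the spot that was not found, and it was not called with median scaling only or with 50 added. With probes below 1 set to 1 in place of removal, 3 of the 7 calls were left, and those of Nppa on days 3 and 28, Nppb on day 7 and Npr1 on day 28 were lost. Nppa missed the limit on day 5 by a small margin (1.87 against 1.93), as did Nppb on day 3 (1.73 against 1.78). Corin, called on average, was past the limit on no day, at −0.87, −0.79, −0.30, −0.89 and −1.04. On day 14 no member was called.

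**Figure D4:**
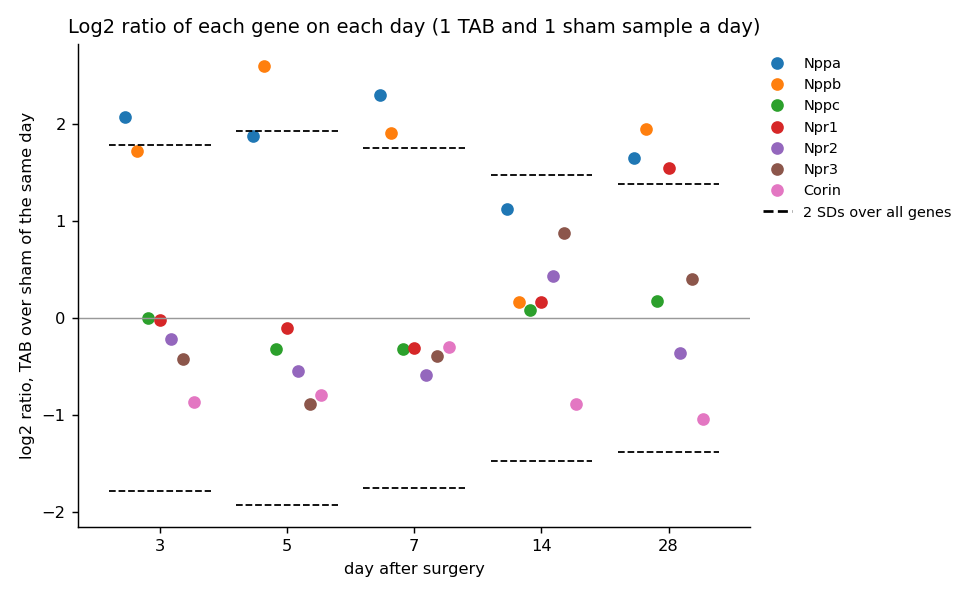
Log2 ratio of TAB over sham for the 7 members on each day after surgery, 1 TAB and 1 sham sample a day, with dashed lines at 2 SDs of all genes on that day. Nppa and Nppb lie near or above the upper line on days 3, 5, 7 and 28 and below it on day 14, and Npr3 is negative on days 3, 5 and 7 and positive on days 14 and 28.

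The other genes of the pathway were followed in lists, read against the 17.1% of all genes called. For processing and clearance, 0 of 5 tested genes were called. The nearest was Furin, a protease that cuts the BNP and CNP precursors (log2 effect −0.63, limma adjusted p = 0.0558), and the median effect was −0.069. Mme, which encodes the peptide-degrading neprilysin, and Ostn, whose product binds the clearance receptor, were found on no array. The 3 genes of the soluble, nitric oxide-sensitive guanylate cyclase had 0 called and a median of 0.0061.

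Downstream of cyclic GMP, 5 of 14 tested genes changed, 2 up and 3 down, with a median effect of 0.093. Pde1a, a calcium-calmodulin dependent phosphodiesterase, was 139 to 195 in TAB and 64.0 to 95.1 in sham, with no overlap (log2 effect 1.17, limma adjusted p = 0.0145). Vasp, a substrate of cyclic GMP-dependent kinase, was 1769 to 2886 in TAB and 1065 to 1647 in sham (0.82, limma adjusted p = 0.0336). Pde1c was lower in TAB, at 29.9 to 61.0 against 64.5 to 100 in sham (−0.82, limma adjusted p = 0.0233). Pde3a, whose product is inhibited by cyclic GMP, was also lower, at 25.8 to 34.5 against 34.5 to 50.5 (−0.58, limma adjusted p = 0.0347). So was Rgs2, a damper of Gq signalling that the kinase activates, at 27.6 to 50.4 in TAB and 55.2 to 83.6 in sham (−0.83, limma adjusted p = 0.0179). Pde1c, Pde3a and Rgs2 were each missing a found spot on 1 to 3 arrays. Their lowest TAB values were close to the first percentile of found spots, 25 to 27 in raw intensity. Pde5a, which hydrolyses cyclic GMP, was found on 0 arrays.

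Of the transcriptional regulators of Nppa and Nppb, 1 of 16 tested genes changed, with a median effect of −0.072. Zfpm2, a cofactor that binds Gata4, was lower in TAB (log2 effect −0.39, limma adjusted p = 0.0454), at 245 to 308 against 301 to 401 in sham. The other 15 ran from −0.69 for Rest, which was found on 0 arrays, to 0.66 for Nfatc4 (limma adjusted p = 0.0780). Gata4 itself, named here after its value was seen, had an effect of −0.30 (limma adjusted p = 0.262). Among 4 tested load-responsive myocyte genes, Acta1 (1.76, limma adjusted p = 0.00430) and Ankrd1, a stretch-responsive sarcomere protein gene (1.08, limma adjusted p = 0.0154), rose. The probe signal of Atp2a2, the calcium pump gene of the sarcoplasmic reticulum, fell (−0.49, limma adjusted p = 0.0370). It was only 115 to 178 in TAB and 192 to 218 in sham. Myh6 was not called, and the median was 0.47.

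**Figure D5:**
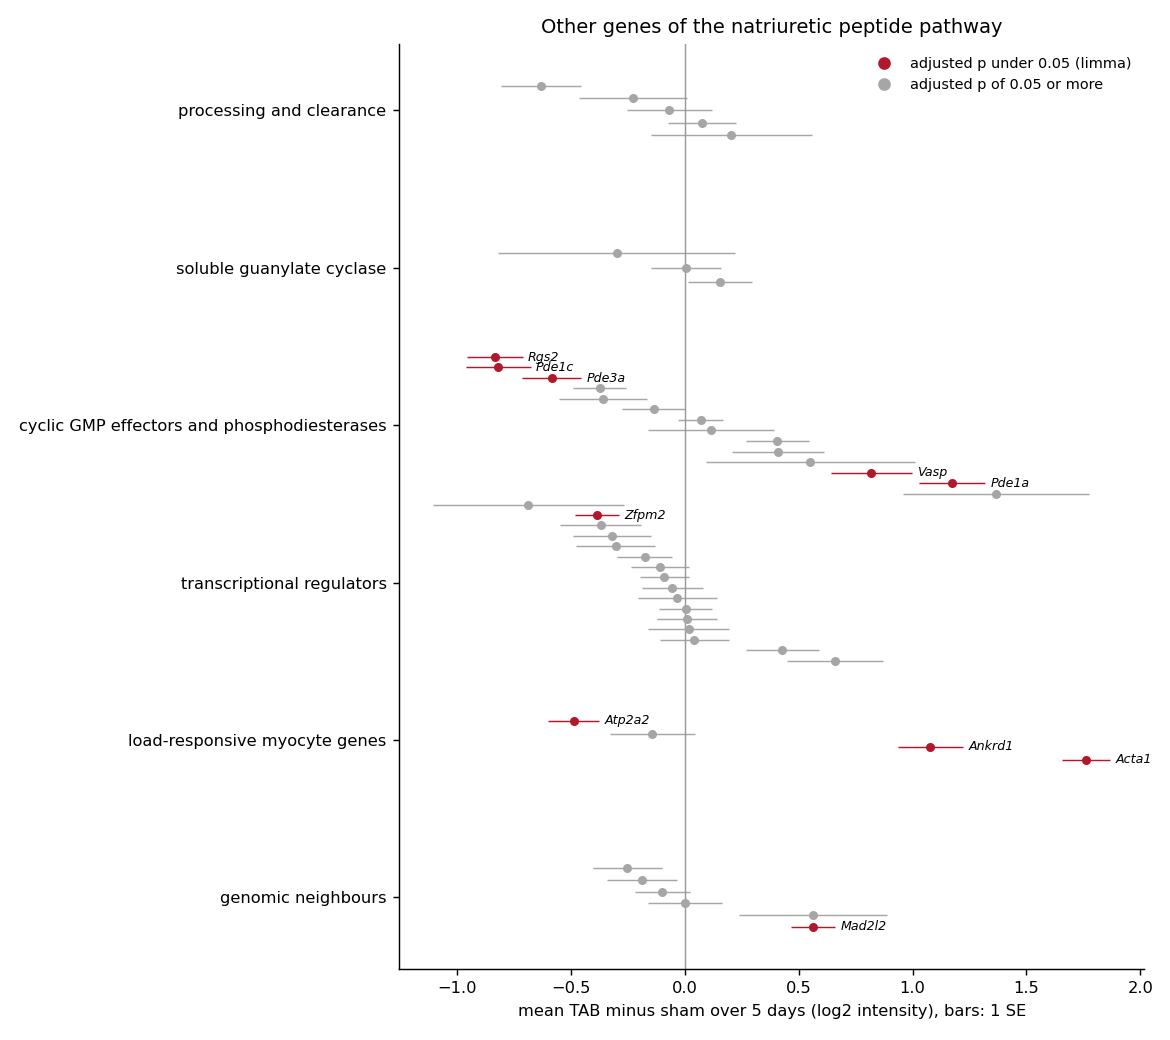
Mean TAB minus sham difference (log2 intensity) over the 5 days for the tested genes of 6 lists around the natriuretic peptides, with bars of 1 SE; genes with a limma adjusted p under 0.05 are red and named. Red points occur on both sides of 0 among the cyclic GMP effectors and phosphodiesterases, and there are none for processing and clearance or the soluble guanylate cyclase.

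Around the Nppb and Nppa pair on chromosome 4, 1 of the 6 nearest measured genes was called, close to the 17.1% of all genes, with a median effect of −0.049. Mad2l2, a mitotic checkpoint and DNA repair gene 128084 bases after Nppa, was 0.56 higher in TAB (limma adjusted p = 0.0227). Clcn6, a chloride transporter gene starting 2185 bases after Nppa, had a similar average of 0.56 but an adjusted p of 0.267 in limma, with its spot found on 7 of 10 arrays. Mfn2, Plod1 and 2510039O18Rik on the Nppb side, and Agtrap on the Nppa side, were not called.

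The genes whose log2 intensity over the 10 samples was most like a member's were taken from 10534 others found on all arrays, by Pearson r. Because all 10 samples share the contrast of operations, these values are descriptions. For Nppa the nearest were Synpo2l (0.978), Pde1a (0.974), Cdk14 (0.971) and Ccdc68 (0.970). For Nppb they were Tnfaip3 (0.991), Prrc1 (0.965), Fbxo46 (0.964), Ehd2 (0.962) and Lrrc8d (0.959), with none in common with Nppa. For Corin they were Psmd6 (0.963), Mast2 (0.961), Ylpm1 (0.959), Haus1 (0.946) and Qdpr (0.937). For Npr3 they were Stx17 (0.969), Ptprg (0.959), Dab2ip (0.947), Colec11 (0.936) and Pdcd4 (0.933). Npr2 was nearest to Cnp (0.953), a cyclic nucleotide phosphodiesterase gene of myelin and not the peptide CNP, followed by Vgf (0.945), Gria2 (0.939), Zg16 (0.936) and Shank1 (0.921), and Nppc to 5730455P16Rik (0.945), Robo2 (0.938), Aim2 (0.927), Hira (0.923) and Rnf112 (0.904).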

How the data were processed

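Unscaled probe intensity was deposited for 10 left-ventricle samples, 1 value per probe (Phalanx OneArray, 1 colour, Cy5), background-subtracted by a method not given in the sources used here. The deposited detection p-value, whose computation is also not given, was used only to describe brightness; the other deposited values are flags, and a negative flag was read as a spot that was not found. Following the study's methods, each array was median scaled, probes below 1 in any sample were removed (19976 of 26423 kept), and intensities were log2 transformed after quantile normalization. Each rank was set to its median over all 10 arrays; the methods describe medians for each condition, which was run as an alternative. Where a gene had several probes, the one with the largest summed absolute log2 ratio stood for it, and 16113 genes were tested. Symbols are those of the file; 3633 probes without one were left out. limma 3.58.1 (R 4.3.3, day as a block, trend and robust off) tested the TAB effect and its late minus early difference, with Benjamini-Hochberg adjustment over all genes at 0.05. The 1 sample per operation and day was grouped by its labels. With day as a block, p-values measure how the TAB minus sham difference varied between days, which may include technical spread. The code was tested on simulated data. Alternatives covered normalization, filters, probe choice, the block, the day-wise threshold and each day left out. The members, lists and motifs were chosen with earlier results of these data known. All members are described; of a list, genes past the threshold are named, otherwise the largest effects, and for each member found on all arrays the 5 most similar genes, of which 1 is not reported here. Pde3b, Mef2a and Myh7 were not analysed here, and Ide, Col1a1, Pdgfra and Cnn1 were removed by the filter.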

Additional observations from a re-analysis of the deposited data

Results flagged for a closer look

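In 28 groups of 5 samples, covering 14 genes in each operation, a sample whose gap to its nearest neighbour exceeded Dixon's limit of 0.71 of the group's range was found for 3; chance gives about 5% of groups. Npr1 of the sham heart of day 28 (16.8, ratio 0.772) is the spot that was not found, and Npr1 of the TAB heart of day 5 (43.5, ratio 0.726) stands out only because the other 4 TAB values lie between 49.0 and 51.3. Corin of the TAB heart of day 3 (568, ratio 0.803) lay below the 803 to 874 of the other TAB hearts.

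The TAB minus sham values of Npr3 and Npr1 were below 0 on the 3 early days and above 0 on the 2 late days; with median scaling only, Npr1 on day 3 was 0.0030. For Npr3 the late minus early difference was 1.20 on the log2 scale (limma adjusted p = 0.394), and for Npr1 it was 1.00 (limma adjusted p = 0.482), with no array of Npr1 at a detection p-value below 0.05, the day 28 sham spot not found, and a difference of 0.31 without day 28.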

How the results depend on the processing

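The average effects of Nppa, Nppb and Corin kept their sign in every alternative run: 1.68 to 2.01, 1.44 to 2.05 and −0.90 to −0.67 on the log2 scale. With probes below 1 set to 1 in place of removal, 1 member was called, Nppa, while limma gave adjusted p-values of 0.0585 for Nppb and 0.0503 for Corin, and 677 genes were called in all. Adding 50 to the intensity gave 4469 called genes, and limma with trend and robust on gave 4194. With 1 day left out, 0 to 2 members and 22 to 2753 genes were called (30, 98, 22, 947 and 2753 genes without day 3, 5, 7, 14 and 28); leaving out only the sham sample of day 14, chosen after seeing the data and run without the day block, gave 4 members and 3200 genes. The effect of Npr3 turned to 0.0010 without day 3 and 0.12 without day 5, and that of Npr1 to −0.064 without day 28. For late minus early, 0 genes became 10 with 50 added, 7 with the lowest tertile left out, 34 with trend and robust on, 5 with no replicate block, 16 with probes not found on any 1 array left out and 168, with 1 member (Npr1), without the sham sample of day 14; the last 2 were chosen after seeing the data. The 7 member values called on single days became 11 with 50 added, 3 with probes below 1 set to 1, 11 at an absolute log2 ratio of at least 1 and 11 at 1.5 SDs.

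The main calls split into 1481 higher and 1268 lower; with median scaling only they were 1782 and 855, and with quantile normalization within each operation 1871 and 950. The numbers shared by TAB and sham samples are days; deviations of same-day samples correlated at 0.113, −0.0165, 0.0065, 0.0029 and 0.0140 on days 3, 5, 7, 14 and 28, so days were a block by design and not a pairing of animals. Without the replicate block 3598 genes and the same 3 members were called. An exact sign-flip permutation over the days cannot go below p = 0.0625. Signal over background limits Npr1, Nppc and Npr3.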
